A study of Mus musculus with 9 samples.

Results

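The 9 microglia genes Cx3cr1, Csf1r, P2ry12, C1qa, C1qb, C1qc, Aif1, Tmem119 and Itgam were followed through RNA that was pulled down with the ribosomes of parvalbumin inhibitory neurons (PV INs). They were taken as a list of known microglia genes, each found under 1 Ensembl identifier, and all 9 were among the 15069 genes tested of 37620 in the files. The mice carried PV-Cre and the Rpl22-HA allele, which puts the hemagglutinin (HA) tag on the ribosomal protein L22 only in Cre-expressing PV INs, and both groups shared this genotype. Lentivirus expressing a non-target shRNA (shNT, 5 samples) or an shRNA against Ablim3 (shRNA, 4 samples) was injected into the dentate gyrus of mice that were 2 months old, and CA3/CA2 tissue was collected 2 weeks later. Each sample pooled 6 mice of both sexes, so the spread between samples is a spread between pools. No sample of the total tissue RNA was analysed here, so enrichment by the pulldown cannot be computed, and in these bulk samples fewer microglia and less RNA per microglial cell cannot be told apart.

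Microglia are the resident macrophages of the brain. They survive on signals through the receptor that Csf1r encodes, for which CSF1 and IL-34 are the ligands, sense neurons through the fractalkine receptor CX3CR1 and move their processes toward ADP through P2RY12. Itgam encodes CD11b, which pairs with the Itgb2 product to form complement receptor 3. Tmem119 encodes a membrane protein much used as a microglia marker, and Aif1 encodes IBA1, a calcium-binding protein of the actin cytoskeleton. C1qa, C1qb and C1qc encode the 3 chains of C1q, the secreted recognition molecule of the classical complement pathway, which is made largely by microglia in the brain. PV INs are not known as a source of these transcripts, and the cells that their reads came from were not identified here.

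The 3 C1q genes lie next to each other on chromosome 4 of mm9, C1qb from 136436044 to 136442102, C1qc from 136445719 to 136448980 and C1qa from 136451832 to 136454718, all on the minus strand. Itgam lies on chromosome 7 from 135206154 to 135271674 and Cx3cr1 on chromosome 9 from 119957811 to 119977400. P2ry12 is on chromosome 3, Tmem119 on chromosome 5 and Aif1 on chromosome 17, and in these 8 genes no exon overlaps that of another annotated gene. RefSeq promoter windows (GRCm38.p6) were searched for 6 of the genes, and the 250 bases before the start are shown for 3 of them that hold no exon base of mm9. They represent the C1q chains and the surface receptors, whose fold changes had opposite signs. Capitals mark GAGGAA or its reverse complement TTCCTC, the core letters of sites for PU.1, the transcription factor of the myeloid lineage.

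C1qb, mm9 chr4:136442116-136442365, minus strand: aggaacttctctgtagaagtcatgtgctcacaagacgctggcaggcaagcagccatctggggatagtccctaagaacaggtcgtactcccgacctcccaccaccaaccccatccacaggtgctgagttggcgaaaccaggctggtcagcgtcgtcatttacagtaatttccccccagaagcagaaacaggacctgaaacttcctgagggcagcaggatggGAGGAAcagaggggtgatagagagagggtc
Itgam, mm9 chr7:135205904-135206153, plus strand: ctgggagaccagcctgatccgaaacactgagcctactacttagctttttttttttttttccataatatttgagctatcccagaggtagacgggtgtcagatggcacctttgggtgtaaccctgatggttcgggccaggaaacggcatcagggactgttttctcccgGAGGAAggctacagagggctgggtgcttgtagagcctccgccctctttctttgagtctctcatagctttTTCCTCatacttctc
Cx3cr1, mm9 chr9:119977415-119977664, minus strand: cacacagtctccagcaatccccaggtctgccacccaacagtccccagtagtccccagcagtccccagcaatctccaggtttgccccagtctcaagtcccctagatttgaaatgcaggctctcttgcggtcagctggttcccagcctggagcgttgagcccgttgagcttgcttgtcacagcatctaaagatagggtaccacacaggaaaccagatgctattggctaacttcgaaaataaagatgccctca

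The letters occurred once in the C1qb window, beginning 30 bases before the start, at 2 places in the Itgam window, beginning 84 and 15 bases before it, and nowhere in the Cx3cr1 window. They also occurred in the windows of C1qc and Aif1 but not in that of P2ry12. No window was searched for Csf1r, C1qa or Tmem119, so the tally leaves these genes out. Over all 32851 RefSeq promoter windows of the same length 23.3% held them on either strand. These matches are letters in a window and no binding was measured.

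Between 18281719 and 34578837 reads were counted on genes per sample. Levels are given as CPM, counts scaled to a common library size, after TMM normalization, edgeR's correction for differences in composition between libraries. The quasi-likelihood test of edgeR was run on all genes tested, and its p-values were adjusted by Benjamini-Hochberg over all of them (FDR). Calls needed both an FDR under 0.05 and a fold change of 1.5 or more. The libraries were not alike in quality. Of uniquely aligned reads, 27.2% lay outside exons in shRNA replicate 4, 19.8% in shRNA replicate 1 and 18.6% in shNT replicate 2, against 9.76% to 12.5% in the other 6. The summed level of 12 PV IN markers was 9344 to 14442 CPM in the shNT samples and 4557 to 11104 CPM in the shRNA samples, with Pvalb detected in every sample.

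The microglia genes were present at low levels in every sample. Their sum was 91.1, 124.9, 70.1, 52.6 and 82.5 CPM with shNT (replicates 1 to 5) and 98.5, 91.9, 104.9 and 95.6 CPM with the shRNA (replicates 1 to 4). The sum averaged 84.2 ± 27.0 CPM over the shNT samples (SD, n = 5) and 97.7 ± 5.49 CPM over the shRNA samples (SD, n = 4), so the shRNA samples all lay within the range of the shNT samples and were closer to each other. A single gene had between 23 and 633 reads in a sample. In shNT replicate 4, which had the smallest sum, 52 reads of Cx3cr1 gave 2.62 CPM with an exact Poisson 95% interval from 1.96 to 3.44, and 23 reads of Aif1 gave 1.16 CPM with an interval from 0.735 to 1.74. These intervals cover counting error only, and for both genes they lie below the levels of shNT replicate 2, 7.76 and 7.34 CPM.

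Levels of different genes were compared per kilobase of exon (RPKM, here TMM-normalized CPM per kilobase). C1qb had the highest level in both groups, 16.1 ± 6.16 RPKM (SD, n = 5) in the shNT and 12.3 ± 1.09 RPKM (SD, n = 4) in the shRNA samples. C1qa followed with 10.9 ± 4.68 and 8.52 ± 1.67 RPKM, and C1qc with 6.96 ± 2.40 and 6.32 ± 0.434 RPKM. The chains kept this order in all 9 samples, with 0.577 to 0.819 of the C1qb level for C1qa and 0.363 to 0.556 for C1qc. Below them P2ry12 (3.14 ± 1.03 RPKM), Tmem119 (3.07 ± 0.872 RPKM) and Csf1r (2.73 ± 0.881 RPKM) did not differ beyond their spread in the shNT samples, nor did Aif1 (2.13 ± 1.63 RPKM) and Cx3cr1 (1.82 ± 0.746 RPKM) below those. Itgam was lowest, with 0.487 ± 0.212 RPKM in the shNT and 0.807 ± 0.0534 RPKM in the shRNA samples. Across the groups only neighbours changed places in the order, Csf1r passing Tmem119 and Cx3cr1 passing Aif1.

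**Figure D1:**
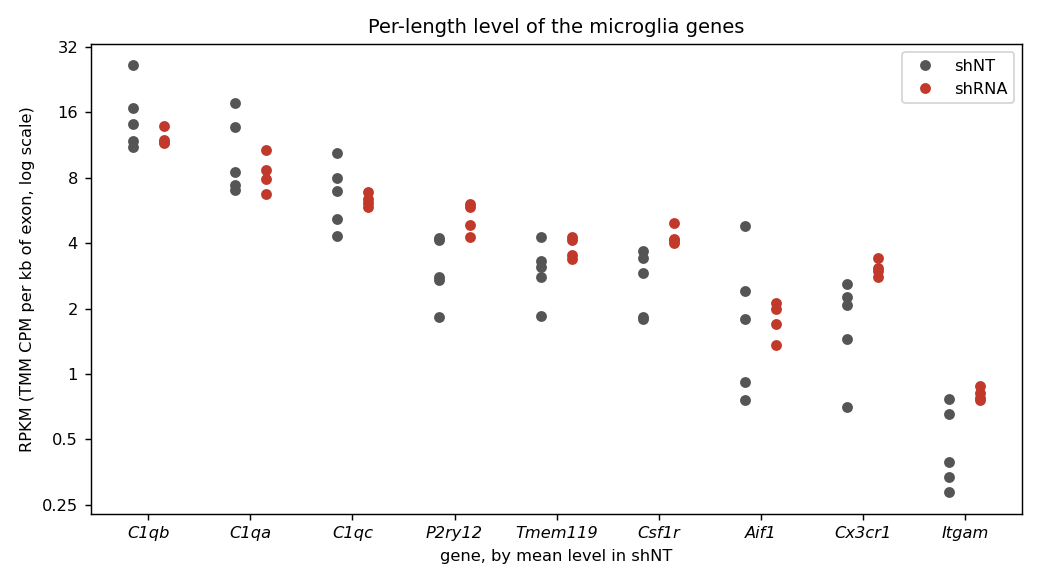
Level of the 9 microglia genes per kilobase of exon (RPKM, log axis) in each shNT sample (grey, n = 5) and shRNA sample (red, n = 4), ordered by the shNT mean. C1qb, C1qa and C1qc lead in both groups and Itgam is lowest, with shNT means from 16.1 down to 0.487 RPKM.

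When the groups were compared, 0 of the 9 genes were called by the quasi-likelihood test, which called 1.75% of all genes tested, 1.74% higher and 0.0133% lower in the shRNA samples. At an unadjusted p under 0.05, 4 of the 9 were higher in the shRNA samples, where 20.7% of all genes were, and 0 were lower, where 13.4% of all genes were. That number of 4 was 1 without shNT replicate 4 or without shNT replicate 5, 2 without shRNA replicate 1 and 0 without shRNA replicate 3. With other tests, 2 were called higher with edgeR's exact test (11.0% of all genes) and with its likelihood ratio test (11.2% of all genes), 1 with DESeq2 (10.1%) and 4 with limma voom and sample quality weights (15.3%). The log2 fold change was above 0 for 5 of the 9, beside 57.9% of all genes, and the median over the 9 was 0.31, beside 0.11 over all genes. The genes above 0 were Cx3cr1, Csf1r, P2ry12, Itgam and Tmem119, and those below 0 were the C1q chains and Aif1.

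Among the surface receptors, Cx3cr1 had 9.64, 7.76, 8.44, 2.62 and 5.43 CPM with shNT and 11.4, 10.4, 12.8 and 11.1 CPM with the shRNA, in the order of the replicates. No shNT sample reached the shRNA samples, and shNT replicates 4 and 5 were the lowest. Mean levels of 6.78 ± 2.78 CPM (SD, n = 5) against 11.4 ± 1.02 CPM (SD, n = 4) gave a log2 fold change of 0.75 (SE 0.31, edgeR quasi-likelihood FDR 0.115), which did not pass. Permuting the sample labels over its log2 level (exact permutation test, two-sided) gave p = 0.0238, and 0.00794 is the smallest p that 5 against 4 samples allow.

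Csf1r, the gene of the receptor that keeps microglia alive, had 19.3, 17.8, 15.3, 9.38 and 9.60 CPM with shNT and 21.0, 21.8, 26.0 and 21.7 CPM with the Ablim3 shRNA. The groups did not overlap, and shNT replicates 4 and 5 again had the lowest values. Mean levels of 14.3 ± 4.61 CPM (SD, n = 5) against 22.6 ± 2.27 CPM (SD, n = 4) gave a log2 fold change of 0.66 (SE 0.23, edgeR quasi-likelihood FDR 0.0816). Other tests gave an FDR of 0.0487 with the likelihood ratio test, 0.0501 with DESeq2 and 0.0025 with limma voom. Csf1r lies on chromosome 18 from 61265226 to 61291803. Over 16.7% of their length its exons overlap those of Hmgxb3 on the other strand. Counting was unstranded, and reads that fit both genes were set apart as ambiguous, outside the counts of either gene. Such reads were not recovered, so the level of Csf1r per kilobase may be too low. Hmgxb3 averaged 37.3 ± 17.2 CPM with shNT (SD, n = 5) against 49.6 ± 14.9 CPM with the shRNA (SD, n = 4), and its 2 lowest values were 20.5 CPM in shNT replicate 2 and 21.2 CPM in shNT replicate 5, where Csf1r had 17.8 and 9.60 CPM.

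P2ry12 had 9.81, 10.1, 6.65, 4.34 and 6.46 CPM in the shNT samples and 10.2, 11.5, 13.9 and 14.5 CPM in the shRNA samples. The groups did not overlap, but shRNA replicate 1 and shNT replicate 2 were nearly level. The means of 7.47 ± 2.44 CPM (SD, n = 5) and 12.5 ± 2.02 CPM (SD, n = 4) gave a log2 fold change of 0.74 (SE 0.25, edgeR quasi-likelihood FDR 0.0773), the lowest FDR of the 9 genes. Other tests gave an FDR of 0.0452 with the likelihood ratio test, 0.0432 with DESeq2 and 0.0030 with limma voom.

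Itgam had 4.16, 4.91, 2.50, 1.82 and 2.13 CPM with shNT and 5.22, 4.94, 5.59 and 4.83 CPM with the shRNA. Only shNT replicate 2 reached into the shRNA values. Its log2 fold change was 0.73 (SE 0.30, edgeR quasi-likelihood FDR 0.120), with means of 3.10 ± 1.36 CPM (SD, n = 5) and 5.14 ± 0.341 CPM (SD, n = 4). Tmem119 had 7.68, 9.87, 6.48, 4.29 and 7.18 CPM with shNT and 7.81, 8.14, 9.55 and 9.88 CPM with the shRNA, and the groups overlapped. Mean levels of 7.10 ± 2.02 CPM (SD, n = 5) against 8.84 ± 1.02 CPM (SD, n = 4) gave a log2 fold change of 0.31 (SE 0.23, edgeR quasi-likelihood FDR 0.334), the smallest of the surface genes.

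C1qa had 8.82, 18.5, 7.31, 7.72 and 14.3 CPM in the shNT samples and 11.2, 8.21, 9.02 and 7.04 CPM in the shRNA samples. shNT replicates 2 and 5 stood above the other 7 samples, which ran from 7.04 to 11.2 CPM. Its log2 fold change was -0.35 (SE 0.29, edgeR quasi-likelihood FDR 0.398). C1qb had 15.5, 28.7, 12.1, 12.9 and 18.2 CPM with shNT and 15.1, 13.01, 12.6 and 12.8 CPM with the shRNA, a log2 fold change of -0.39 (SE 0.24, edgeR quasi-likelihood FDR 0.269). C1qc had 13.4, 20.01, 9.98, 8.32 and 15.5 CPM with shNT and 13.3, 11.4, 12.4 and 11.8 CPM with the shRNA, a log2 fold change of -0.14 (SE 0.24, edgeR quasi-likelihood FDR 0.693). The shRNA samples of each chain lay within the shNT range, except C1qa in shRNA replicate 4, which was below it, and shNT replicate 2 had the highest level of all 9 samples.

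Aif1 had the pattern of the C1q chains rather than that of the receptors. It had 2.74, 7.34, 1.41, 1.16 and 3.70 CPM in the shNT samples and 3.26, 2.59, 3.06 and 2.07 CPM in the shRNA samples, so that shNT replicates 2 and 5 were the highest and shNT replicates 3 and 4 the lowest. Its log2 fold change was -0.25 (SE 0.48, edgeR quasi-likelihood FDR 0.731), the least certain of the 9. Without shNT replicate 2 it was 0.28, and that of C1qc was 0.05, so their sign rests on that sample. Without shNT replicate 2 the log2 fold change of C1qa was -0.11 and that of C1qb -0.14. For these 4 genes the exact permutation test (two-sided) gave p between 0.310 and 0.976.

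**Figure D2:**
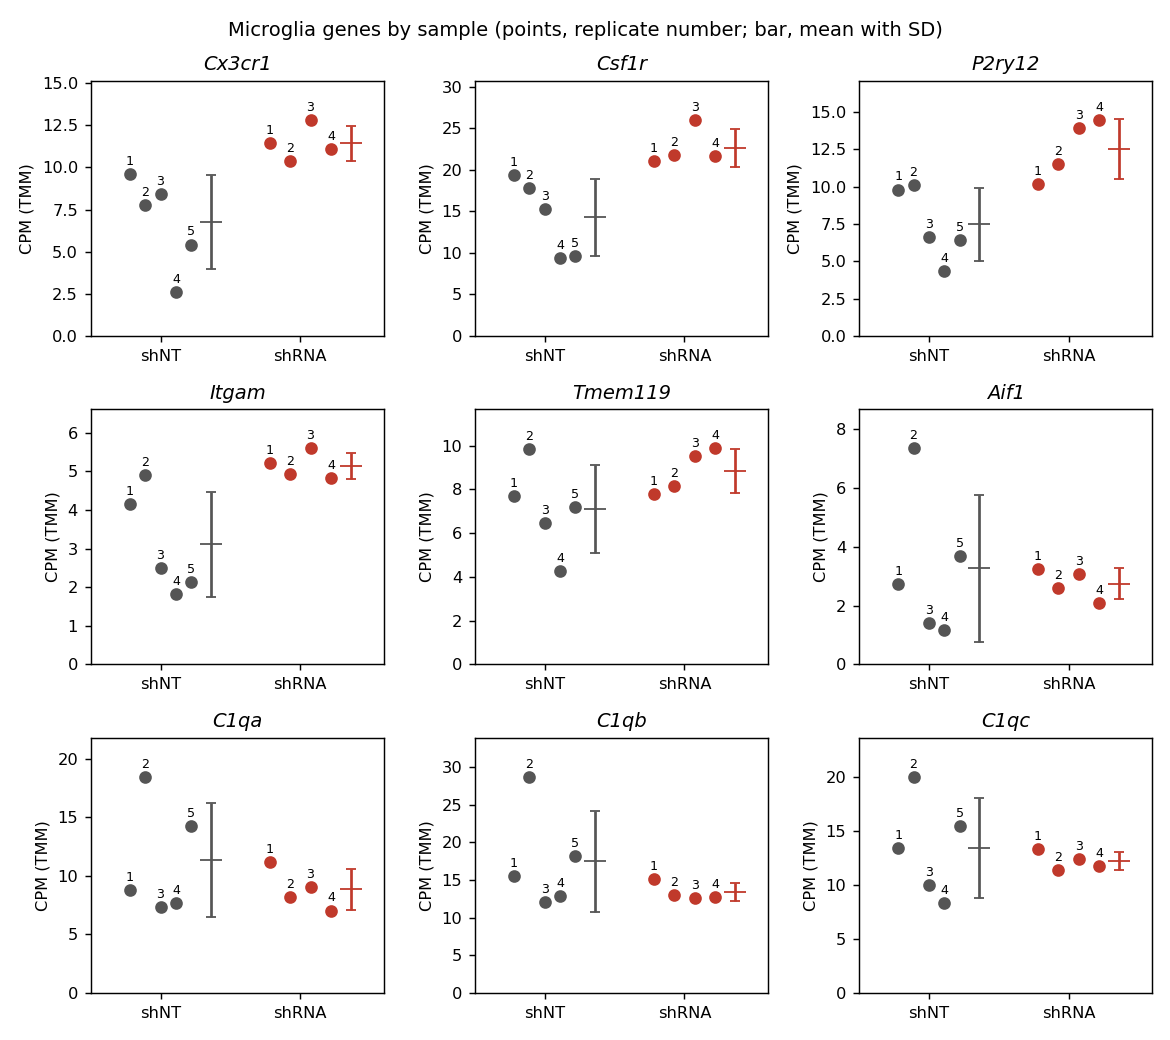
Level of each microglia gene (CPM, TMM-normalized, linear axes from 0) in the 5 shNT and 4 shRNA samples, each point marked with its replicate number, beside the group mean with SD. In Cx3cr1, Csf1r and P2ry12 every red point lies above every grey point, while in C1qa, C1qb, C1qc and Aif1 shNT replicate 2 is the highest sample.

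The groups were apart, with all shRNA samples higher, in 3 of the 9 genes (Cx3cr1, Csf1r and P2ry12) and in 8.97% of all genes tested. They were apart with all shRNA samples lower in 0 of the 9 and in 6.68% of all genes. The samples were sorted by sample name into 1 set of 6 (shNT replicates 1 to 3 and shRNA replicates 1 to 3) and another of 3 (shNT replicates 4 and 5 and shRNA replicate 4). The library names, a group with a replicate number, do not show these sets, and what the sets stand for is not stated. The low receptor values of the shNT group were those of the smaller set, where Csf1r averaged 9.49 CPM in the shNT samples against 17.5 CPM in the shNT samples of the larger set. Within the larger set Csf1r averaged 17.5 CPM in the shNT and 22.9 CPM in the shRNA samples and Cx3cr1 8.61 and 11.5 CPM. There the shRNA samples were all higher than the shNT samples in 4 genes, Cx3cr1, Csf1r, P2ry12 and Itgam, beside 11.2% of all genes. Leaving out shNT replicate 4 from the comparison over all samples gave log2 fold changes of 0.47 for Cx3cr1, 0.52 for P2ry12, 0.51 for Itgam and 0.10 for Tmem119, and leaving out shNT replicate 5 gave 0.46 for Csf1r, the lowest values of these genes with 1 sample left out. The log2 fold changes within that larger set were 0.39 for Cx3cr1, 0.36 for Csf1r, 0.39 for P2ry12, 0.41 for Itgam (edgeR quasi-likelihood FDR from 0.480 to 0.581) and 0.05 for Tmem119 (edgeR quasi-likelihood FDR 0.950), smaller than over all samples. With the set of names as a term in the fit they were 0.75, 0.65, 0.74 and 0.71 (edgeR quasi-likelihood FDR from 0.0789 to 0.118).

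Ratios of counts within a library do not depend on how libraries are scaled to each other. C1qb reads numbered 0.800, 1.61, 0.793, 1.38 and 1.90 per Csf1r read in the shNT samples. With the shRNA they numbered 0.719, 0.597, 0.483 and 0.588, and the groups did not overlap. Aif1 reads numbered 0.562 to 1.74 per Itgam read with shNT and 0.430 to 0.624 with the shRNA, and here the groups overlapped. How often other pairs of genes keep the groups apart was not tested. C1qb and Csf1r also differ in exon length, with 1088 and 5229 bases. The geometric mean of the 5 surface genes over that of the 3 C1q chains (from log2 CPM) was 0.737, 0.423, 0.706, 0.414 and 0.351 with shNT and 0.766, 0.947, 1.07 and 1.09 with the shRNA. The group means were 0.526 ± 0.181 (SD, n = 5) and 0.968 ± 0.148 (SD, n = 4). shNT replicates 2, 4 and 5 had the lowest ratios, and shNT replicates 1 and 3 came close to shRNA replicate 1. No test is given for these ratios because the genes were grouped with their values known.

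Exon length differed between the same genes. The exons of C1qa, C1qb, Aif1 and C1qc come to 1040, 1088, 1532 and 1931 bases, and those of Tmem119, P2ry12, Cx3cr1, Csf1r and Itgam to 2315, 2379, 3729, 5229 and 6377 bases. Over all genes tested the median log2 fold change was -0.32 in the fifth with the shortest exons, up to 1975 bases, and 0.45 in the fifth with the longest, from 6161 bases. Among the genes nearest in exon length, the median log2 fold change was -0.41 for C1qa, -0.40 for C1qb, -0.14 for C1qc and -0.26 for Aif1. The log2 fold changes of these 4 genes differed from those medians by at most 0.06. P2ry12 lay 0.86 above the median of its length, Cx3cr1 0.59, Csf1r 0.43, Tmem119 0.42 and Itgam 0.35. After a correction of each sample for its trend with exon length, the log2 fold change was 0.80 for P2ry12 (edgeR quasi-likelihood FDR 0.103), 0.64 for Cx3cr1, 0.44 for Csf1r and 0.43 for Itgam, and 0 genes of all tested were called. The part of exon length in the difference between the genes was not tested.

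**Figure D3:**
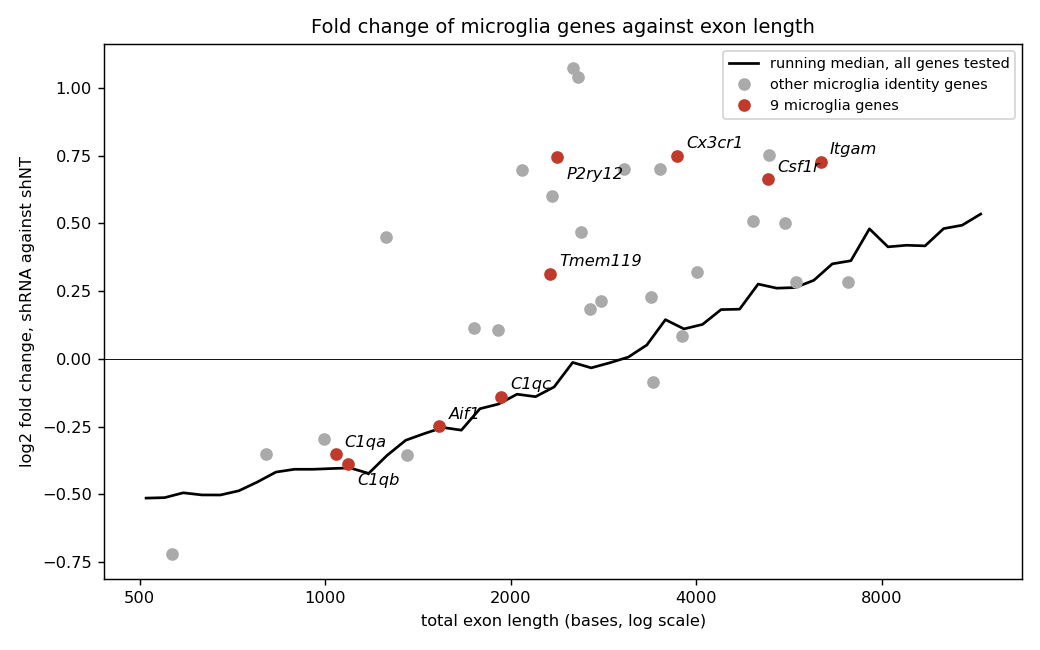
Log2 fold change (shRNA against shNT) against total exon length (bases, log axis) for the 9 microglia genes (red) and 25 other microglia identity genes (grey), with the running median over all genes tested (black, genes nearest in length). The C1q chains and Aif1 lie within 0.06 of the line, and the 5 surface genes lie 0.35 to 0.86 above it.

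Markers of other cells moved between the samples as well. On the scale of mean log2 CPM relative to the shNT mean, the 5 surface genes were at 0.45, 0.49, 0.04, -0.75 and -0.24 in the shNT samples and 0.61, 0.62, 0.87 and 0.75 in the shRNA samples. A list of 10 pyramidal and granule neuron markers was at 0.49, 0.43, 0.12, -0.69 and -0.36 and at 0.91, 0.61, 0.95 and 0.99 in the same samples, so the samples low in the receptors were also low in these markers. Of these 10 genes 1 was called, Grik4, beside 1.75% of all genes, and 0 were lower. At an unadjusted p under 0.05, 8 were higher, beside 20.7% of all genes. In 6 of the 10 all shRNA samples were higher, beside 8.97% of all genes. Oligodendrocyte markers ran from -0.42 to 0.78 in the shNT and from 0.45 to 1.10 in the shRNA samples (0 of 12 called). Markers of oligodendrocyte precursors ran from -0.30 to 0.31 and from 0.62 to 1.04. Of these 8 genes 4 were called higher (Neu4, Gpr17, Pdgfra and Olig2), beside 1.74% of all genes. Astrocyte markers ran from -0.20 to 0.39 in the shNT and from 0.39 to 2.35 in the shRNA samples. Of the 12 genes 0 were called, and 12 lay above 0 in log2 fold change, beside 57.9% of all genes. At an unadjusted p under 0.05, 10 of them were higher, beside 20.7% of all genes. PV IN markers ran from -0.52 to 0.19 and from -1.28 to 0.01 (0 of 12 called). All 12 lay below 0 in log2 fold change, and 3 were lower at an unadjusted p under 0.05, beside 13.4% of all genes. Pvalb itself averaged 998 CPM with shNT and 526 CPM with the shRNA, a log2 fold change of -0.92 (edgeR quasi-likelihood FDR 0.0678). The part of these shifts in the receptor values was not tested.

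Astrocyte and endothelial markers were highest in shRNA replicate 4. That sample was at 2.35 for 12 astrocyte markers, against 0.39 to 0.70 in the other shRNA samples, and at 2.24 for 12 endothelial markers, against -1.42 to -0.51. Its mean over the 9 microglia genes was 0.26, within the 0.24 to 0.43 of the other shRNA samples. In summed level it had 1312 CPM of endothelial markers, against 101 to 190 CPM in the other shRNA samples, and 95.6 CPM of the microglia genes. Without shRNA replicate 4 the log2 fold changes ran from 0.64 to 0.74 in Cx3cr1, Csf1r, P2ry12 and Itgam, and that of P2ry12 fell from 0.74 to 0.64. Their edgeR quasi-likelihood FDR was then 0.154 to 0.197, against 0.0773 to 0.120 over all samples. In shNT replicate 2 the C1q chains were at 0.74 and endothelial markers at 0.72, while shNT replicate 1 had 0.67 for endothelial markers and -0.10 for the C1q chains. Nuclear-retained noncoding RNAs such as Malat1 were highest in shRNA replicate 4, at 2.29, where the C1q chains were at -0.36. These RNAs were at 1.61 in shNT replicate 2 and at 1.63 in shRNA replicate 1, where the C1q chains were near 0.

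**Figure D4:**
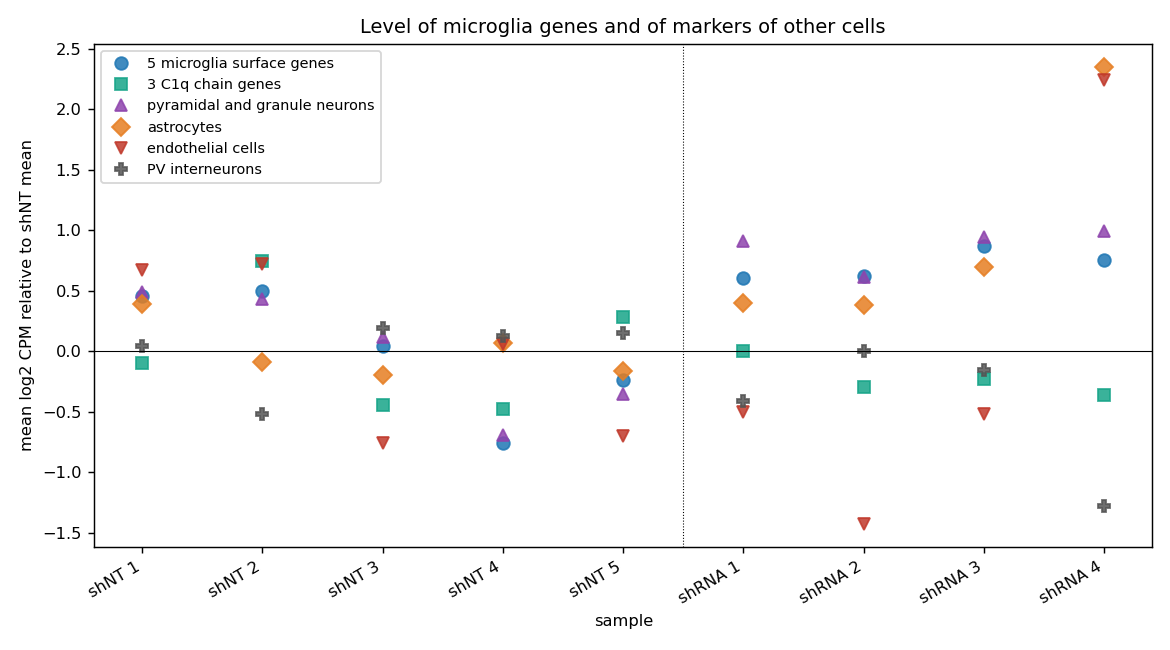
Mean log2 CPM of 5 microglia surface genes (Cx3cr1, Csf1r, P2ry12, Tmem119, Itgam), 3 C1q chain genes and marker lists of other cells in each sample, with the shNT average set to 0. Astrocyte and endothelial markers reach 2.35 and 2.24 in shRNA replicate 4, where the surface genes stand at 0.75 and the C1q chains at -0.36.

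Another 25 microglia identity genes were measured in the same samples. Of these 0 were called, 4 were higher at an unadjusted p under 0.05, beside 20.7% of all genes, and 20 had a positive log2 fold change, beside 57.9% of all genes. Their median was 0.28, beside 0.11 over all genes. Among the most abundant was Ctss, the gene of cathepsin S, with 18.8 ± 8.13 CPM in the shNT samples and 14.7 ± 0.942 CPM in the shRNA samples. P2ry13, another purinergic receptor, had 1.35, 1.70, 1.89, 1.06 and 1.16 CPM with shNT and 2.43, 3.34, 3.11 and 3.20 CPM with the shRNA. Its groups did not overlap, and it had the largest log2 fold change of the list, 1.07 (SE 0.26, edgeR quasi-likelihood FDR 0.0558). Gpr34 and Selplg were also without overlap, with log2 fold changes of 0.70 (edgeR quasi-likelihood FDR 0.0752) and 0.47 (edgeR quasi-likelihood FDR 0.135). All shRNA samples were thus higher in 3 of the 25 genes, beside 8.97% of all genes tested. Tyrobp and Fcer1g, small adaptor genes with 564 and 800 exon bases, had log2 fold changes of -0.72 (edgeR quasi-likelihood FDR 0.236) and -0.35 (edgeR quasi-likelihood FDR 0.548). Both were highest in shNT replicate 2, with 9.32 and 6.01 CPM, as the C1q chains and Aif1 were, and without it their log2 fold changes were -0.28 and -0.02. Spi1, the gene of PU.1, had 0.617 to 2.85 CPM in the shNT and 1.42 to 2.13 CPM in the shRNA samples. P2ry13, Gpr34, Selplg, Tyrobp, Fcer1g and Spi1 were picked out with their values known.

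Ligands and partners of these receptors were measured in the same samples, and 0 of the 10 tested of 11 were called. Cx3cl1, the gene of fractalkine, which neurons make and CX3CR1 binds, had 497 ± 117 CPM with shNT (SD, n = 5) and 477 ± 121 CPM with the shRNA (SD, n = 4). Il34, the neuronal ligand of CSF1R, had 67.7 ± 4.78 and 53.9 ± 11.8 CPM, a log2 fold change of -0.33 (edgeR quasi-likelihood FDR 0.174). Csf1, the other ligand, had 4.45 to 10.3 CPM with shNT and 12.3, 9.10, 9.39 and 36.2 CPM with the shRNA, a log2 fold change of 1.30 (edgeR quasi-likelihood FDR 0.0724). The highest value was that of shRNA replicate 4, the sample rich in astrocyte markers, and without it the log2 fold change was 0.59 (edgeR quasi-likelihood FDR 0.169). Itgb2, the partner chain of Itgam, had 0.376 to 1.61 CPM with shNT and 1.24 to 1.89 CPM with the shRNA, and its groups overlapped. Inpp5d, the gene of the phosphatase SHIP1, had 4.73, 4.87, 1.61, 1.61 and 1.76 CPM with shNT and 8.08, 6.18, 6.86 and 8.52 CPM with the shRNA, a log2 fold change of 1.35 (SE 0.38, edgeR quasi-likelihood FDR 0.0645). Its groups did not overlap, and it was the 1 gene of the 10 tested with all shRNA samples higher, beside 8.97% of all genes. Without shNT replicate 2 Inpp5d was at 1.61 (edgeR quasi-likelihood FDR 0.0488), which passes, and without shRNA replicate 4 at 1.24 (edgeR quasi-likelihood FDR 0.136). The other ligands and signals Tgfb1, Cd200, Cd47, Sirpa and Tyrobp had log2 fold changes between -0.72 and 0.16, and Cd200r1 stayed under the filter on low counts.

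Of 13 complement genes outside C1q, 8 passed the filter and 0 were called. C4b, which encodes a C4 protein cleaved downstream of C1q, had 6.14 to 17.5 CPM with shNT and 15.6, 12.3, 14.0 and 83.8 CPM with the shRNA (log2 fold change 1.59, edgeR quasi-likelihood FDR 0.0904), and without shRNA replicate 4 the log2 fold change was 0.40 (edgeR quasi-likelihood FDR 0.445). Cd59a, the gene of a membrane inhibitor of complement, had a log2 fold change of -0.70 (edgeR quasi-likelihood FDR 0.0698), with 55.9 to 109.2 CPM with shNT and 42.0 to 58.8 CPM with the shRNA. C3, the central component, was low, with 1.74 ± 0.611 and 1.87 ± 1.09 CPM. C1ra, C1s, Cd55 and Serping1 had log2 fold changes between 0.13 and 0.77. C1ra and C1s passed the filter only through shRNA replicate 4. After TMM they were below 1 CPM there too, with 0.947 and 0.992 CPM. Without that sample the log2 fold change was 0.25 for Cd55 and 0.10 for Serping1. The genes C2, Cfb, Cfi, C3ar1 and C5ar1 stayed below 1 CPM in every sample.

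Of 17 genes of activated microglia 10 passed the filter and 0 were called, and Ccl3, Ccl4, Tnf, Il1b, Itgax, Cst7 and Clec7a did not exceed 0.551 CPM in any sample. The most abundant were Apoe and Cd9, which astrocytes also express, and both were highest in shRNA replicate 4 (1567 and 61.5 CPM). Their log2 fold changes were 0.65 and 0.61, and -0.22 and -0.13 without that sample. Lpl, the gene of lipoprotein lipase, was without overlap between the groups, with a log2 fold change of 0.48 (edgeR quasi-likelihood FDR 0.119), and Lyz2, the gene of lysozyme, had -0.62 (edgeR quasi-likelihood FDR 0.101). Lpl was the 1 gene of the 10 with all shRNA samples higher, beside 8.97% of all genes tested. Markers of perivascular macrophages and blood myeloid cells were near 0. Their summed level over 11 genes was 1.72 to 3.58 CPM in the shNT and 1.74 to 3.83 CPM in the shRNA samples, only F13a1 passed the filter, and Mrc1, Cd163 and Ccr2 did not reach 1 CPM in any sample.

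The genes whose log2 levels over the 9 samples were most like the mean of the microglia genes were ranked by Pearson's r among 13717 genes averaging at least 1 CPM, as a description. Among the 10 nearest were Kcnmb4 (r = 0.969), Ncf1, Cebpa, Cplx3, Lmo1, Gp1bb, Rprml, Ptpn6 and Bok (r = 0.931). Among them Ncf1 encodes a subunit of the phagocyte NADPH oxidase, Cebpa a transcription factor of myeloid cells and Ptpn6 the phosphatase SHP-1 of blood cells. Bok encodes a protein of the BCL2 family, is in the list of pyramidal and granule neuron markers and was used in the paper as a gene enriched in CA3. Kcnmb4, Cplx3, Lmo1, Gp1bb and Rprml are in none of the cell lists used here. Of the 25 other microglia identity genes, Irf8 (rank 68) and Cd68 (rank 91) were among the 100 nearest, and the median rank was 630. The points share their libraries and their scaling.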

How the data were processed

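Ribosome-associated RNA from CA3/CA2 was sequenced in 9 samples, grouped by the library names in the labels. The authors mapped reads with STAR to mm9 and deposited HTSeq 0.6.0 counts per gene, unstranded and not normalized. Summary rows were left out of library sizes. GENCODE's mm9 annotation named 37205 identifiers, and the annotation the authors counted on is not given in the sources used here. Spi1 was found under an older symbol, Cd47 under 2 identifiers (the one with reads was used) and Kcnq1ot1 under none.

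R 4.3.3, edgeR 4.0.16, limma 3.58.1 and, as an alternative, DESeq2 1.42.0 were run. A gene was kept if it reached 1 CPM, before TMM, in any sample. Library scaling was TMM, log2 levels had a prior count of 2, and condition was the only term. On simulated counts of 14605 genes for this comparison, with 200 changed 2-fold, 70 of these were called in the right direction and 7 unchanged genes were called. All pairs of samples differed by more than sampling noise.

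The members and lists were chosen with earlier results of these data known. All members were named, as were ligands, partners and complement genes, and from other lists the called genes and the 2 most abundant (Cplx1 and Gad1, Aldoc and Slc1a2, Mbp, Olig1 and Cacng4, Itm2a and Flt1, Camk2a and Slc17a7, Malat1 and Meg3, Lyve1 and F13a1 in lists of other cells and of nuclear RNAs). Some genes that this rule names are not reported here. Alternatives were other tests, scalings and filters, added terms (replicate number, set of names, reads outside exons) and left-out samples. The exon length correction and leaving out shNT replicate 2 together with shRNA replicate 4 were chosen after seeing the data.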

Additional observations from a re-analysis of the deposited data

Results flagged for a closer look

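Among 22 groups of values, the 9 genes, their sum and the ratio of surface to C1q genes in each condition, 1 sample lay far from the rest of its group, where chance gives about 1.1. Csf1r in shRNA replicate 3 had 26.0 CPM, against 21.0 to 21.8 CPM in the other shRNA samples. It does not set the direction, since the other shRNA samples also lay above every shNT sample. No difference between contrasts could be sought, because the series has only this comparison.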

How the results depend on the processing

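Over all genes 264 were called. The count was 2193 with the exact test of edgeR, 2230 with the likelihood ratio test, 2363 with DESeq2, 2919 with limma voom, 515 without a filter on low counts and 680 without both shNT replicate 2 and shRNA replicate 4. It was 0 with a test against a 1.5-fold change, library size only, upper quartile scaling, the larger set of names, reads outside exons as a term or the exon length correction, where 1379 to 5360 genes had an unadjusted p under 0.05. Leaving out 1 sample gave 0 to 1417 genes, with 1417 without shNT replicate 1, 482 without shNT replicate 2, 142 without shRNA replicate 4 and 0 in turn without shNT replicates 3, 4 and 5 and shRNA replicates 1 and 3 (3473 to 4625 at an unadjusted p under 0.05). Of the microglia genes 2 were called with the exact test, 2 with the likelihood ratio test, 1 with DESeq2 and 4 with limma voom, and 0 under every other alternative run. The cause of these differences was not tested.

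The log2 fold changes of Cx3cr1, Csf1r, P2ry12, Itgam, Tmem119 and C1qb kept their sign under every alternative run. Those of C1qc and Aif1 were 0.13 and 0.56 with limma voom and 0.068 and 0.38 without both shNT replicate 2 and shRNA replicate 4, and with 1 sample left out they ran from -0.34 to 0.05 and from -0.54 to 0.28. With the exon length correction C1qa, C1qc and Aif1 were at 0.018, 0.0030 and 0.012.

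The groups share replicate numbers, and 4 pairs are too few to settle whether the numbers pair the samples. Deviations of same-numbered samples had correlations of -0.27, -0.64, 0.49 and -0.18, and 1 of the 4 shRNA samples correlated best with its own number. With the replicate block 29 genes and 0 microglia genes were called, and the log2 fold change of Aif1 was 0.18. Genes with few reads, such as Aif1 with 23 in shNT replicate 4, are limited by counting error.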
